A study of Mus musculus with 12 samples.

Results

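Mice that breathed a citrus odor were compared with mice that breathed filtered air in 1 fraction of their olfactory mucosa, the sorted cells that did not carry the GFP reporter. Of the 12 arrays of the series, the 6 whose titles name GFP- cells were used, 3 titled odor (replicates 2, 3 and 4) and 3 titled vehicle (replicates 1, 2 and 4). All 19938 genes with a probe set of exactly 1 symbol were described, of which 1015 encode odorant receptors. All 18 mice of the study, of both sexes and 7 to 12 weeks old, carried the S100a5-tauGFP reporter, vehicle mice included. Each mouse stayed alone in a chamber with purified air at 3.1 L per minute for 40 hours. After 26 hours, pulses began that lasted 10 seconds and came every 20 minutes, of odorant or, for vehicle, of filtered air. A citrus accord, with 5% in the series title, served as odorant, and no source used here states what it contained. The dissociated mucosa was sorted by fluorescence, and each array held RNA from a pool of 3 mice, so the replicate was the pool. The GFP-positive array with the same treatment and the same number in its title was read as the other fraction of the same pool.

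The olfactory mucosa holds sensory neurons, each of which uses 1 odorant receptor, together with supporting cells, glands, basal stem cells, glia and blood-borne cells. S100a5 encodes a calcium-binding protein of mature sensory neurons whose level follows odor-driven activity. A GFP-negative fraction is defined by the lack of fluorescence alone, and it can therefore hold every other cell of the dissociated tissue as well as sensory neurons with little or no reporter. In sorted bulk RNA, fewer cells of a type and less RNA per cell cannot be told apart.

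The deposited log2 values of the 12 arrays ran from 2.42 to 14.1, with array medians between 7.04 and 7.20. Between any pair of the 6 GFP-negative arrays the correlation across genes was 0.984 to 0.994, and a pair held identical values for at most 6 genes. The median within-group SD of a gene was 0.14 among the GFP-negative arrays and 0.086 among the GFP-positive arrays. The fraction was checked against defining markers. The mature neuron gene Omp read 13.04 to 13.29 in GFP-negative and 13.45 to 13.51 in GFP-positive arrays, so RNA of mature sensory neurons was present in both fractions. The probe set of S100a5 itself read 5.83 to 6.23 and 6.29 to 6.48, close to the lower quartile of the GFP-negative arrays (5.65 to 5.83), and told little about the sort. Cyp2g1, an odorant-metabolising cytochrome of supporting cells, read 12.66 to 12.94 in GFP-negative and 10.55 to 11.42 in GFP-positive arrays. The mean over 68 leukocyte genes read 9.25 to 9.76 and 6.87 to 7.15. No test was made of the difference between the fractions.

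No gene passed the test of odor against vehicle in the GFP-negative cells. Of 19938 genes, 0 (0%) had an adjusted p under 0.05 in either direction, or higher (0%) or lower (0%) with odor, by limma with Benjamini-Hochberg adjustment, and the smallest adjusted p was 0.998. At an unadjusted p under 0.05, 520 genes (2.61%) were counted, 229 (1.15%) higher and 291 (1.46%) lower, where 5% of the genes would be 996.9. The 3 odor arrays lay wholly above the 3 vehicle arrays for 556 genes (2.79%) and wholly below them for 927 (4.65%), 1483 genes (7.44%) in all. Differences were small, with a median absolute log2 difference of 0.082 against a median standard error of 0.11. A single gene passed a fold of 2, the receptor Olfr178, and of 58 genes past a fold of 1.5, 38 were odorant receptors. The count of 520 depended on single pools: it was 1305 without odor replicate 2, 1320 without odor replicate 3 and 212 without odor replicate 4, while the number of adjusted calls was 0 in each.

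The 10 genes with the smallest p among those higher with odor, receptors aside, had differences of 0.37 to 0.88. Values are given for odor replicates 2, 3 and 4 and then for vehicle replicates 1, 2 and 4 throughout. Dcpp2, a secreted protein first found in salivary glands, read 5.19, 4.66 and 5.24 with odor and 4.09, 4.25 and 4.36 with vehicle (5.03 ± 0.32 against 4.23 ± 0.14, SD, n = 3 each), a difference of 0.80 (SE 0.16). On each array Dcpp2 read below the lower quartile of that array (5.65 to 5.83). Rnase2a, an eosinophil-associated ribonuclease, read 7.70, 8.30 and 8.39 against 7.05, 7.32 and 7.38, a difference of 0.88 (SE 0.18). Jchain, the chain that joins IgA and IgM into polymers, read 8.41, 8.87 and 8.73 against 8.30, 7.80 and 7.33, a difference of 0.86 (SE 0.23). In each of these 3 genes and in the rest of the 10 the groups were apart, as for 2.79% of all genes. Selection by small p favours this. For Jchain, vehicle replicate 1 came close to odor replicate 2. Nkg7, a granule protein of cytotoxic lymphocytes, read 7.48, 7.97 and 7.77 against 7.14, 7.37 and 7.21, and Gbp7, an interferon-induced GTPase, read 8.53, 8.86 and 8.997 against 8.29, 8.09 and 8.45. The acute-phase protease inhibitor Serpina3n read 8.13, 8.41 and 7.87 against 7.63, 7.63 and 7.47. Gatm, an enzyme of creatine synthesis, read 8.37, 8.90 and 8.39 against 7.87, 8.04 and 8.12. Xlr, Ly6a2 and Fcrls made up the 10, with differences of 0.72, 0.54 and 0.37. None passed the adjustment over all genes. In the GFP-positive arrays of the same pools the differences of these genes were smaller, at −0.13 for Dcpp2, 0.14 for Rnase2a, −0.14 for Jchain, −0.09 for Nkg7 and 0.28 for Xlr. The genes were picked by their p in GFP-negative arrays, so smaller differences in the other fraction could come from that choice alone. The difference between the fractions did not pass the test for any of the 10 (limma interaction term over 12 arrays). Dcpp2 passed that test only in the fit without the GFP-negative array of odor replicate 3, among fits that each left out 1 array.

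Among the 10 genes with the smallest p that were lower with odor, differences ran from −0.58 to −0.30. Steap2, a membrane metalloreductase, had the widest gap, with 7.51, 7.00 and 7.54 against 7.87, 7.84 and 8.08, a difference of −0.58 (SE 0.15). Csf3, the growth factor for granulocytes, read 5.82, 5.88 and 5.69 against 6.08, 6.10 and 6.23, a difference of −0.34. Zfp93, a zinc finger gene, read 7.50, 7.46 and 7.49 against 7.73, 7.79 and 7.83. These 3 genes and the rest of the 10 had no overlap between groups, as did 4.65% of all genes. The choice by small p favours such genes. Oxct2a, a ketone body enzyme of the testis, read 6.26, 6.27 and 6.33 against 6.74, 6.53 and 6.68, and the non-coding RNA Flicr read 5.07, 5.10 and 5.08 against 5.33, 5.40 and 5.65. Pnma3, Magea7-ps, Actrt1, Myot and Apoc4 had differences of −0.40, −0.39, −0.37, −0.33 and −0.43. None of the 10 passed the adjustment. Flicr, Pnma3 and Actrt1 read below the lower quartile of each array (5.65 to 5.83).

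**Figure D1:**
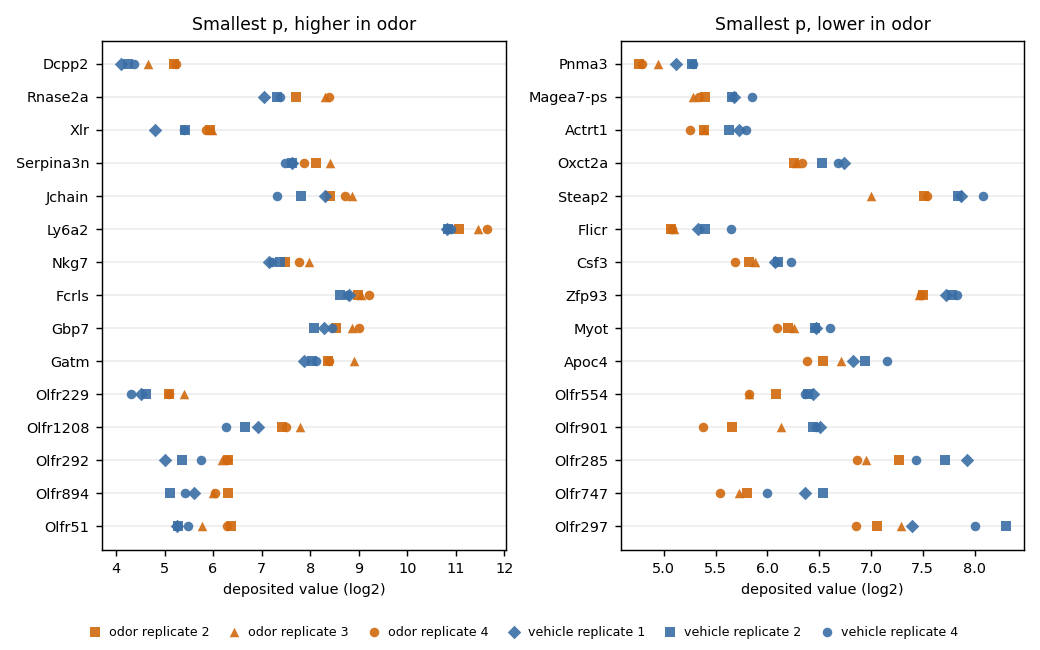
Deposited log2 values of the named genes with the smallest unadjusted p, 10 genes and 5 receptors higher with odor and as many lower, with 1 point for each of the 3 odor (orange) and 3 vehicle (blue) GFP-negative arrays. The 2 colours are apart for genes such as Rnase2a and Steap2, by distances of under 1 log2 unit between group means, and none of these genes passed the adjustment over 19938 genes.

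Leukocyte genes read high in the GFP-negative fraction, and their level differed from pool to pool. Over 68 of 72 listed genes of neutrophils, macrophages, antigen-presenting cells, T and NK cells and B and plasma cells, the mean log2 value was 9.27, 9.58 and 9.76 on the odor arrays and 9.25, 9.35 and 9.46 on the vehicle arrays. That is 9.53 ± 0.25 against 9.35 ± 0.10 (SD, n = 3 each) and a range of 0.51 over the 6 arrays, or 1.42-fold. The highest values came from odor replicates 4 and 3, while odor replicate 2 lay with vehicle replicate 1 at the bottom, so the groups overlapped. Odor replicate 4 gave the highest value for 50 of the 68 genes (73.5%). The median difference of odor from vehicle was 0.15 with 59 of 68 genes above 0, beside −0.015 and 9023 of 19938 (45.3%) for all genes. No leukocyte gene passed the adjusted test, 4 of 68 had an unadjusted p under 0.05 and were higher (1.15% of all genes), and 2 of 68 (Nkg7 and Jchain) lay wholly above vehicle (2.79% of all genes). The median was 0.28 without odor replicate 2 and 0.03 without odor replicate 4.

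Neutrophils, the granulocytes that kill bacteria with stored enzymes, showed the same order. The mean of 17 neutrophil genes was 11.00, 11.45 and 11.50 with odor and 10.99, 11.08 and 11.11 with vehicle. The median difference was 0.19, all 17 genes were above 0 and none had an unadjusted p under 0.05. Leaving out odor replicate 2 gave 0.43, leaving out odor replicate 4 gave 0.04, and leaving out vehicle replicate 2 gave 0.08. The GFP-positive arrays of the same pools read lower but in nearly the same order, at 7.11, 7.60 and 8.09 with odor and 7.21, 7.41 and 7.56 with vehicle. The collagenase Mmp8 shared this in part, with 11.17, 11.62 and 12.18 against 11.44, 11.13 and 11.83 in GFP-negative arrays and 5.59, 6.34 and 7.64 against 5.57, 6.27 and 6.62 in GFP-positive arrays. S100a8, an abundant calcium-binding protein of neutrophils, read 12.53, 12.71 and 12.90 against 12.56, 12.48 and 12.70 in GFP-negative cells and 7.46, 8.27 and 8.90 against 7.79, 7.96 and 8.15 in GFP-positive cells. In both genes and both fractions the highest array was odor replicate 4, while the lowest array differed between the fractions.

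**Figure D2:**
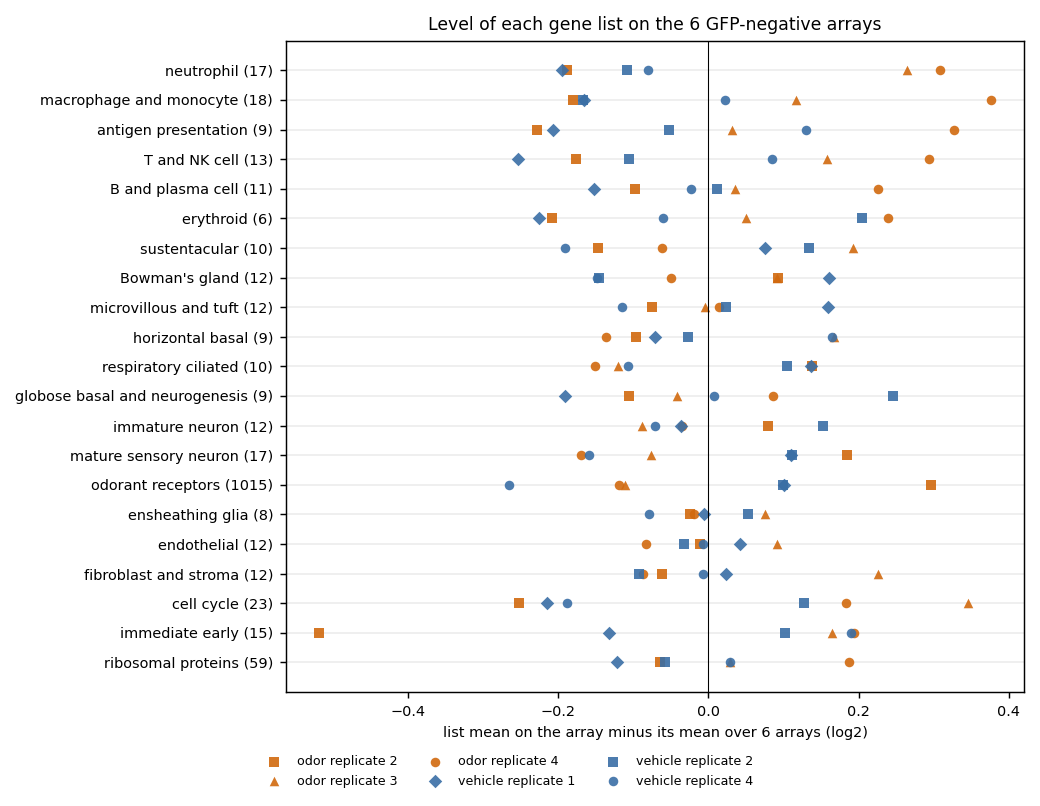
For 21 gene lists, the mean log2 value of the list on each GFP-negative array minus its mean over the 6 arrays, with odor in orange and vehicle in blue and the marker shape giving the replicate number of the title. Leukocyte lists lie highest on odor replicate 4, immediate early genes lie lowest on odor replicate 2, and the 2 colours overlap in each list.

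Within the neutrophil list, the genes of primary granule proteases and of myeloperoxidase, which are transcribed at the promyelocyte stage, followed another order than 4 genes of mature neutrophils. This choice of genes was made after the values were seen. Elane, neutrophil elastase, read 9.43, 10.47 and 9.75 with odor and 9.16, 10.06 and 8.84 with vehicle. Mpo, myeloperoxidase, read 10.33, 11.16 and 10.52 against 10.02, 10.56 and 9.73, a difference of 0.57 (SE 0.25). Prtn3, proteinase 3, read 9.36, 10.11 and 9.56 against 8.90, 9.67 and 8.63, a difference of 0.61 (SE 0.28). In these 3 genes odor replicate 3 was highest, vehicle replicate 2 was above the other vehicle arrays, and the groups overlapped. Ctsg, cathepsin G, had 7.02, 7.94 and 7.46 against 6.87, 7.62 and 6.85. By contrast Cxcr2, the chemokine receptor of mature neutrophils, read 10.75, 10.88 and 11.73 against 10.84, 10.31 and 11.35. Csf3r, the receptor of the Csf3 growth factor, read 10.14, 10.20 and 10.58 against 10.19, 9.62 and 10.36, and the gelatinase Mmp9 read 11.82, 12.04 and 12.40 against 11.78, 11.70 and 12.28. These 3 genes and Mmp8 were lowest on vehicle replicate 2 and highest on odor replicate 4. Over the whole list of 17 genes, 7 were lowest on vehicle replicate 2, 6 on odor replicate 2 and 4 on vehicle replicate 4, while 12 were highest on odor replicate 4 and 5 on odor replicate 3. In the GFP-positive arrays Elane read 6.83 to 7.19 and Mpo 6.63 to 6.97.

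The promoter windows of 3 of the 4 granule genes, Elane, Mpo and Prtn3, are shown because they hold the same motif. They are the 250 bases before the RefSeq start on GRCm38.p6, with capitals for GAGGAAGT, letters bound by the myeloid factor PU.1. Elane, at chr10:79886062-79886311 on the plus strand, Prtn3, at chr10:79879417-79879666 on the plus strand, and Mpo, at chr11:87793534-87793783 on the plus strand, each hold it.
Elane: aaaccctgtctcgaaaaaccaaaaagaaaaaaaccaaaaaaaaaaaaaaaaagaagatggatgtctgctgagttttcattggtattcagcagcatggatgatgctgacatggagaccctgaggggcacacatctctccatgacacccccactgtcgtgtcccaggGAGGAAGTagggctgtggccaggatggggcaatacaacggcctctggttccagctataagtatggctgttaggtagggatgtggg
Prtn3: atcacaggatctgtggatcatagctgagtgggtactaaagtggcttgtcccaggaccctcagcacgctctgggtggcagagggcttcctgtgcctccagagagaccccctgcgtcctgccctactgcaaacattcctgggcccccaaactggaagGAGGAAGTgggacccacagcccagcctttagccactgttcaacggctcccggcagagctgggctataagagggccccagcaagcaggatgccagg
Mpo: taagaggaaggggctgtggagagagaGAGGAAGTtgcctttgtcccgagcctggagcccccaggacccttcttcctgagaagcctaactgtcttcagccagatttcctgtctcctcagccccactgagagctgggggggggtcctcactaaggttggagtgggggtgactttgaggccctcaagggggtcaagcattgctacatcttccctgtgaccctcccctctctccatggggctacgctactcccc
Searched on both strands, GAGGAAGT was present in 3 of 4 granule genes (not in Ctsg) and in 2.44% of 32841 promoter windows of the same length. Ctsg, without this motif, had the same order of arrays as Elane, Mpo and Prtn3. TGTGGT, a RUNX motif, was present in 1 of 4 (Ctsg) and in 14% of windows, and TTGCGCAA, a C/EBP motif, in 0 of 4 and in 0.164%. None of these motifs contains another, and a match describes these letters only.

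Genes of dividing cells also read highest on odor replicate 3, though their order over the other arrays was not that of the granule enzymes. Over 23 of 24 cell cycle genes the mean was 7.88, 8.48 and 8.31 with odor and 7.92, 8.26 and 7.94 with vehicle, with the highest value on odor replicate 3 for 18 genes, while GFP-positive arrays read 6.66 to 6.75. Top2a, the topoisomerase of dividing cells, read 8.23, 9.19 and 8.84 against 8.31, 8.88 and 8.10, and Kif11, a spindle motor, read 7.85, 8.86 and 8.56 against 7.96, 8.50 and 7.87. Odor replicate 2 lay with the lower vehicle arrays in both. The median difference was 0.18 with 23 of 23 above 0 and none past an unadjusted p of 0.05. It was 0.33 without odor replicate 2, 0.28 without vehicle replicate 2, 0.07 without odor replicate 3, 0.10 without odor replicate 4 and 0.11 without vehicle replicate 1. Markers of neurogenesis did not share this order: Neurod1, a neuronal differentiation factor, read 5.55, 5.74 and 6.67 against 5.66, 6.61 and 5.99, and Sox11 read 8.14, 7.81 and 8.52 against 7.95, 8.63 and 8.16. Nhlh1, also of late progenitors, read 7.95, 7.84 and 7.39 against 7.42, 8.47 and 7.77. The 9 globose basal and neurogenesis genes had a median difference of −0.03, with 1 of 9 above 0.

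**Figure D3:**
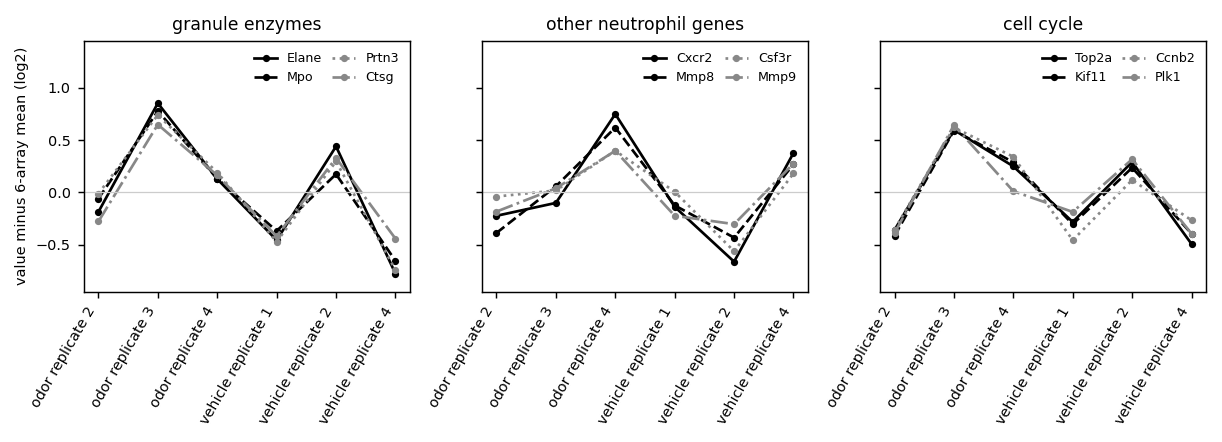
Log2 value minus the gene's mean over the 6 GFP-negative arrays, for 4 granule enzymes, 4 genes of mature neutrophils and 4 cell cycle genes, with lines that only join the points of 1 gene. The granule and cell cycle genes shown are highest on odor replicate 3, whereas Cxcr2, Mmp8, Csf3r and Mmp9, chosen after their values were seen, are highest on odor replicate 4 and lowest on vehicle replicate 2.

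Most macrophage, antigen presentation and T and NK cell genes had differences above 0, as in the neutrophil list. The medians of the T and NK cell, B and plasma cell and antigen presentation lists turned sign when some single arrays were left out. The mean of 18 macrophage and monocyte genes was 8.92, 9.22 and 9.48 with odor and 8.94, 8.94 and 9.13 with vehicle, with a median difference of 0.22, 17 of 18 above 0, and odor replicate 4 highest for 15. It was 0.35 without odor replicate 2 and 0.11 without odor replicate 4. Cd14, the endotoxin co-receptor, had the widest spread, with 8.62, 9.98 and 10.56 against 9.17, 9.54 and 9.93. Unlike the neutrophil list, the macrophage list followed another order in GFP-positive arrays, at 7.14, 7.00 and 6.99 against 7.35, 7.05 and 6.77. Of the 13 T and NK cell genes, none passed the adjusted test. At an unadjusted p under 0.05, 3 were higher (Nkg7, Cd4 at 0.46 and Il2rb at 0.49), beside 1.15% of all genes. The median difference of the list was 0.13 with 10 of 13 above 0. Leaving out odor replicate 2 gave 0.31, leaving out vehicle replicate 4 gave 0.21, and leaving out odor replicate 4 gave −0.04. Cd4, the helper T cell co-receptor, read 7.99, 8.51 and 8.57 against 7.87, 7.76 and 8.06, and Il2rb, an interleukin-2 receptor chain, read 7.56, 8.04 and 8.18 against 7.09, 7.43 and 7.80. Both overlapped between groups through odor replicate 2. The 11 B and plasma cell genes had a median of 0.05 with 7 above 0, Jchain alone having an unadjusted p under 0.05. That median was 0.11 without odor replicate 2, −0.042 without odor replicate 4 and −0.012 without vehicle replicate 1. Single immunoglobulin segments were among the widest-ranging genes of the arrays: Igkv4-91 read 7.84, 6.46 and 6.56 against 8.50, 5.94 and 6.12, and Igkv5-43 read 7.52, 9.38 and 7.30 against 8.48, 7.39 and 7.02. The 9 antigen presentation genes had a median of 0.06 with 8 above 0. It ran from −0.065 to 0.17 when 1 array was left out. The 6 erythroid genes had 0.06, which ran from −0.078 to 0.20. The 6 mast cell genes had 0.05, where Ms4a2, a chain of the IgE receptor, differed by 0.50.

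Epithelial content varied over the pools too, in another order than the leukocyte genes, and the group means of supporting cell genes lay closer together than the pools of 1 group. Sustentacular cells support the neurons and clear odorants with detoxifying enzymes. Over 10 of their 12 listed genes the mean was 10.35, 10.69 and 10.43 with odor and 10.57, 10.63 and 10.30 with vehicle (10.49 ± 0.18 against 10.50 ± 0.17, SD, n = 3 each), with a median difference of −0.03 and 4 of 10 above 0. Cyp2g1 read 12.70, 12.89 and 12.67 against 12.82, 12.94 and 12.66. Cbr2, a carbonyl reductase, read 11.85, 12.23 and 11.82 against 12.14, 12.32 and 11.78, and Sec14l3, a lipid-binding protein, read 11.22, 11.64 and 11.06 against 11.59, 11.48 and 10.96. Vehicle replicate 4 was lowest and odor replicate 3 or vehicle replicate 2 highest for these genes. The same pools stood high and low in the GFP-positive arrays, whose sustentacular means were 8.57, 8.996 and 8.51 with odor and 8.82, 8.89 and 8.48 with vehicle.

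**Figure D4:**
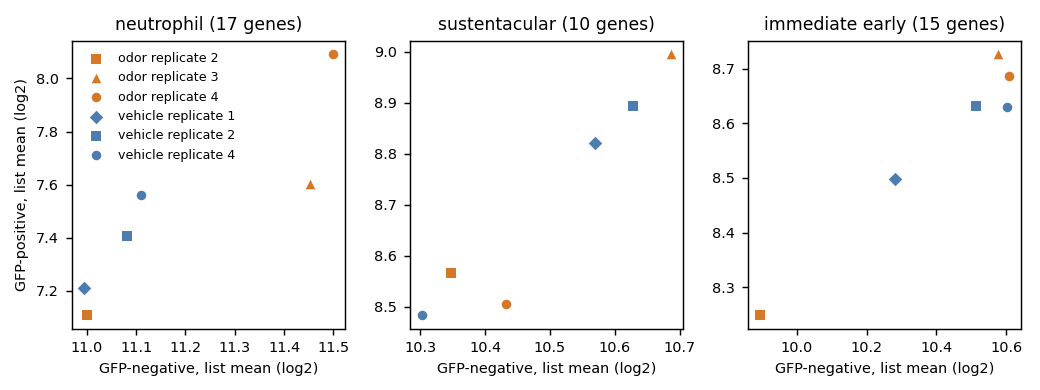
Mean log2 value of the neutrophil, sustentacular and immediate early lists in the GFP-negative array (horizontal axis) and in the GFP-positive array of the same treatment and title number (vertical axis), with 1 point per pool. A pool that stood high in 1 fraction stood high in the other for all 3 lists, as for odor replicate 4 with neutrophil means of 11.50 and 8.09.

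Bowman's glands, which secrete the mucus over the epithelium, had a list mean of 9.85, 9.85 and 9.71 with odor and 9.92, 9.61 and 9.61 with vehicle, and a median difference of 0.01 over 12 genes, which was 0.19 without vehicle replicate 1 and −0.026 without odor replicate 3. The secreted products named here differed from each other in their order of arrays. Bpifb9a read 10.84, 10.72 and 10.77 against 11.42, 10.04 and 10.35, the odorant-binding protein Obp2a read 11.29, 10.97 and 10.67 against 10.96, 10.59 and 10.50, and lysozyme Lyz1 read 9.25, 10.20 and 10.17 against 9.28, 9.37 and 9.53. Lyz1 had a difference of 0.48 (SE 0.23), with odor replicate 2 below all vehicle arrays. Its highest arrays, odor replicates 3 and 4, and its lowest, odor replicate 2 and vehicle replicate 1, were also those of the leukocyte mean. Whether Lyz1 RNA came from leukocytes was not tested. Among 12 genes of microvillous and tuft cells, which sense chemicals through Trpm5 or transport ions, the median was −0.05. Trpm5 differed by 0.18, the tuft cell cytokine Il25 by −0.21, and the transcription factor Ascl3 read 8.58, 8.31 and 8.59 against 9.07, 8.94 and 8.04. Horizontal basal stem cells (9 genes) had a median of −0.06, 10 motile cilium genes −0.10, 8 ensheathing glia genes −0.04 and 12 endothelial genes −0.06. In the glia list, Frzb, a secreted Wnt antagonist, read 6.44, 6.29 and 6.32 against 6.14, 6.15 and 6.03, a difference of 0.24. It was the 1 gene of 8 that lay wholly above vehicle, as did 2.79% of all genes. The 12 fibroblast and stroma genes had a median of 0.04, and Fn1, fibronectin, which macrophages also make, read 11.59, 12.36 and 12.51 against 11.51, 11.60 and 12.16.

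Sensory neuron genes in the GFP-negative fraction read highest on arrays where leukocyte genes read low. The mean of 17 mature neuron genes was 12.01, 11.75 and 11.65 with odor and 11.93, 11.93 and 11.66 with vehicle, against 12.40 to 12.45 in GFP-positive arrays. The highest array was odor replicate 2 for 12 genes and vehicle replicate 2 for 5. The median difference was −0.03 with 3 of 17 above 0. Omp read 13.29, 13.14 and 13.05 against 13.21, 13.25 and 13.04, a difference of −0.01 (SE 0.11). Of genes whose level follows neuronal activity, S100a5 differed by −0.12 (SE 0.11), the adhesion genes Kirrel2 and Kirrel3 by −0.01 and 0.04, and Pcdh10, a protocadherin, by 0.20. The 12 immature neuron genes had a median of −0.06. Neurons that use the receptor cyclase Gucy2d had a median of −0.19 over 5 genes with 2 above 0. Gucy2d differed by −0.23, their channel Cnga3 by −0.24, Emx1 by −0.19 and Pde2a by 0.088, and Car2 by 0.0015. That median was −0.083 without odor replicate 2 and −0.30 without odor replicate 3.

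Odorant receptor genes varied widely over the pools of both treatments. The median receptor spanned 0.90 log2 units over the 6 arrays, beside 0.37 for all genes. Their list mean was 7.21, 6.80 and 6.80 with odor and 7.02, 7.01 and 6.65 with vehicle, whereas GFP-positive arrays read 7.48 to 7.61. Odor replicate 2 was the highest array for 458 of 1015 receptors (45.1%), and vehicle replicate 4 was the lowest for 369 (36.4%). The median difference was 0.04 with 562 of 1015 above 0. It was −0.08 without odor replicate 2 and −0.07 without vehicle replicate 4. No receptor passed the adjusted test, and 60 of 1015 had an unadjusted p under 0.05, beside 2.61% of all genes. Of these, 37 were higher (1.15% of all genes) and 23 lower (1.46%). Wholly above vehicle lay 29 of 1015, beside 2.79% of all genes, and wholly below it 22, beside 4.65%. The count of 60 was 111 without odor replicate 2, 110 without odor replicate 3 and 97 without vehicle replicate 1.

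**Figure D5:**
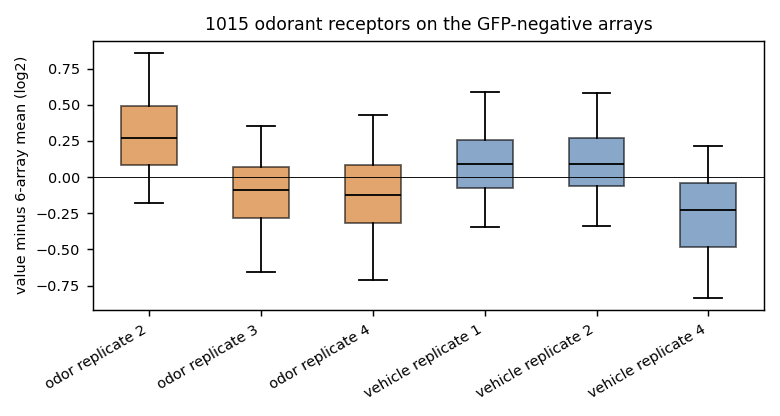
Deviation of 1015 odorant receptor genes from their own mean over the 6 GFP-negative arrays (log2), with the box for the quartiles, the line for the median and the whiskers from the 5th to the 95th percentile. The median is 0.27 on odor replicate 2 and −0.23 on vehicle replicate 4, and the odor and vehicle boxes overlap.

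The receptors with the smallest p were modest in size. Olfr1208 read 7.43, 7.80 and 7.50 with odor and 6.93, 6.66 and 6.26 with vehicle, a difference of 0.96 (SE 0.17). Olfr292 read 6.32, 6.19 and 6.29 against 5.01, 5.37 and 5.76, a difference of 0.89. Olfr229 read 5.10, 5.40 and 5.09 against 4.51, 4.63 and 4.30, a difference of 0.72 (SE 0.13), with each value below the lower quartile of its array. The odor arrays were above all vehicle arrays in these 3 receptors, and likewise in Olfr894 (0.74) and Olfr51 (0.81). In GFP-positive cells the differences of Olfr1208, Olfr292 and Olfr51 were −0.30, −0.44 and −0.24, and those of Olfr229 and Olfr894 were 0.013 and 0.18. These receptors were picked by their p in GFP-negative arrays, which favours groups that lie apart there and smaller differences in the other fraction. On the lower side, Olfr554 read 6.08, 5.82 and 5.82 against 6.44, 6.39 and 6.36, and Olfr901, Olfr285 and Olfr297 differed by −0.75, −0.66 and −0.83. Olfr178, the gene past a fold of 2, read 6.77, 5.66 and 5.28 against 5.85, 4.41 and 4.13, a difference of 1.11 (SE 0.48), and its groups overlapped. Of the 15 genes with the widest range over the 6 arrays, 11 were odorant receptors or receptor pseudogenes. Olfr299 led them, with 5.95, 3.41 and 6.48 against 6.39, 4.71 and 5.47, and Olfr60 read 7.44, 7.43 and 7.02 against 7.34, 7.54 and 4.73.

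Olfr747 was the 1 gene of 19938 (0.00502%) called for a different odor effect between the fractions by the limma interaction term over 12 arrays. In that fit, 843 genes had an unadjusted p under 0.05. The fit took the 12 arrays as independent, although both fractions came from the same pools. In GFP-negative cells Olfr747 read 5.80, 5.73 and 5.55 with odor and 6.37, 6.53 and 5.99 with vehicle, a difference of −0.61 (SE 0.15). In GFP-positive cells it read 7.51, 8.05 and 7.56 against 5.88, 6.33 and 6.22, a difference of 1.57 (SE 0.17). The signal thus lay higher with odor in 1 fraction and lower in the other, with no overlap in either. The GFP-negative odor values lay close to the lower quartiles of their arrays (5.72, 5.71 and 5.68). The difference between the effects was −2.17 (SE 0.24, adjusted p = 0.0186 by limma). With the pool as a block, which pairs the fractions, the same difference had an adjusted p of 0.0526 by limma and no gene was called. It also missed the threshold with cyclic loess scaling (adjusted p = 0.0967) and in 6 of 12 fits that left out 1 array (adjusted p 0.0507 to 0.106).

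Immediate early genes, which cells transcribe within minutes of a stimulus or of handling, were set apart by 1 pool. The mean of 15 such genes was 9.89, 10.58 and 10.61 with odor and 10.28, 10.51 and 10.60 with vehicle, and odor replicate 2 was the lowest array for 14 of 15 (93.3%). The GFP-positive arrays gave 8.25, 8.73 and 8.69 against 8.50, 8.63 and 8.63, again lowest in the pool of odor replicate 2. The median difference was −0.11 with 3 of 15 above 0, and it was 0.13 without odor replicate 2 and −0.24 without odor replicate 3 or odor replicate 4. Fos, the transcription factor subunit, read 11.30, 11.85 and 12.05 against 11.70, 11.80 and 11.94, a difference of −0.08 that was 0.13 without odor replicate 2. Egr1 read 11.09, 11.65 and 11.71 against 11.46, 11.73 and 11.71, Nr4a1, an orphan nuclear receptor, read 11.02, 12.24 and 12.21 against 11.60, 12.14 and 12.04, and Atf3 read 9.66, 10.87 and 10.59 against 10.00, 10.72 and 10.75. For each of these genes odor replicate 2 was lowest and vehicle replicate 1 was next. Npas4, the neuron-specific member, alone had an unadjusted p under 0.05, with a difference of −0.28, beside 1.46% of all genes on the lower side.

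The promoters of Dusp1, a phosphatase that ends kinase signals, and of Fos are shown because both genes were lowest on odor replicate 2 and their windows hold the cAMP response element in whole or in part. Dusp1 read 12.51, 12.98 and 13.08 with odor and 12.85, 12.97 and 13.00 with vehicle. The Dusp1 window is chr17:26508473-26508722 on the minus strand of GRCm38.p6, with TGACGTCA in capitals, and the Fos window is chr12:85473640-85473889 on the plus strand, with TGACG in capitals.
Dusp1: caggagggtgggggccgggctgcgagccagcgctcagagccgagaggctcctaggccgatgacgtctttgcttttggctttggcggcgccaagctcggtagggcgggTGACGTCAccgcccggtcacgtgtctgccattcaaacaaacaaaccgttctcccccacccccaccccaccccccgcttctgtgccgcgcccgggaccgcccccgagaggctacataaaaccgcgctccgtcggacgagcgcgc
Fos: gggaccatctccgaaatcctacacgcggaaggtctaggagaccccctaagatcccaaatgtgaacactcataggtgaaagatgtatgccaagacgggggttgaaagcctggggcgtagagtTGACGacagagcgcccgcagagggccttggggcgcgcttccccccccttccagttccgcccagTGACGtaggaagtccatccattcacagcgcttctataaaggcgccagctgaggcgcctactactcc
TGACGTCA was present on either strand in 2 of the 11 immediate early genes with a RefSeq window and in 1.55% of all windows. The shorter TGACG, which lies within TGACGTCA, was present in 10 of 11 and in 17.8% of windows. A match is a description of the letters and shows no binding.

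Of the 15 genes with the widest range, 4 were no receptors: both immunoglobulin segments named above, which had orders of their own, and Thbs1 and Trim12a. Thbs1, a matrix protein of activated monocytes and platelets, read 9.49, 11.51 and 12.11 with odor and 10.79, 10.98 and 11.68 with vehicle, a range of 2.62. Trim12a read 5.24, 7.08 and 7.82 against 5.81, 6.57 and 5.99. Il6, an inflammatory cytokine with a narrower range, read 5.29, 6.77 and 7.07 against 5.82, 6.44 and 6.50, and the nuclear receptor Nr4a2 read 7.54, 9.35 and 9.48 against 8.12, 8.79 and 9.33. Thbs1, Trim12a, Il6 and Nr4a2 were each lowest on odor replicate 2. A principal component analysis of the 6 arrays was made over all genes. The first component held 41.1% of the variance and placed odor replicate 2 at −0.62, odor replicates 3 and 4 at 0.31 and 0.36, vehicle replicates 1 and 2 at −0.28 and −0.26 and vehicle replicate 4 at 0.49. It thus crossed the treatments. On this axis 64 of 68 leukocyte genes, 15 of 15 immediate early genes and 23 of 23 cell cycle genes had positive scores, while 0 of 17 mature neuron genes and 112 of 1015 receptors (11.0%) did, beside 51.7% of all genes.

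Lists of stress and detoxification genes differed little between odor and vehicle. The 10 heat shock genes had a median difference of 0.05 with 9 above 0, 12 unfolded protein response genes 0.02, and 14 inflammatory cytokines and chemokines 0.01. The 9 interferon response genes had 0.10 with 8 above 0, and −0.046 without odor replicate 3 or 0.025 without vehicle replicate 4. Among chemokines, Ccl7 differed by −0.26 with an unadjusted p under 0.05, as did 1.46% of all genes on the lower side. Cxcl10 read 7.20, 8.81 and 7.80 against 7.85, 8.34 and 6.90. Genes of the electrophile and aryl hydrocarbon response, which many inhaled chemicals induce, had a median of −0.05 over 15 genes. Hmox1, heme oxygenase, differed by 0.28 and the cytochrome Cyp1a1 by −0.11. Over 18 of 22 listed biotransformation enzymes the median was 0.05 with 13 above 0. Adh1, an alcohol dehydrogenase, differed by 0.26 and Cyp2b19 by −0.36. They alone of the 18 had an unadjusted p under 0.05, beside 1.15% of all genes higher and 1.46% lower. Adh1 read 8.80, 8.56 and 8.69 against 8.42, 8.37 and 8.49, wholly above vehicle, as were 2.79% of all genes. Of 59 ribosomal protein genes 54 were above 0, with a median of 0.10, and 48 (81.4%) were highest on odor replicate 4, the array with the most leukocyte RNA. The median was 0.0087 with leukocyte content as a covariate and 0.039 without odor replicate 4. No test was made of the part of leukocyte content in that difference. The 84 respiratory chain genes had a median of 0.01.

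Sex-linked genes also differed between the pools. Xist, transcribed from the inactive X chromosome, read 10.08, 9.42 and 9.63 with odor and 10.50, 9.10 and 10.55 with vehicle, and the Y-linked gene Eif2s3y read 8.23, 7.44 and 8.59 against 7.84, 8.21 and 7.29. Neither followed the treatment, and the sources used here do not give the sex makeup of the pools. Vomeronasal receptor genes, which belong to another organ, gave a low list mean of 4.05 to 4.18 over 163 genes and a median difference of −0.06. That median was −0.0055 with cyclic loess scaling and −0.00525 with a second quantile normalization. The 13 trace amine receptors had a median difference of 0.04.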

How the data were processed

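RNA from each pool and fraction was hybridised to a Mouse Gene 1.0 ST array. The authors deposited 1 log2 value for each probe set and array, and per the submitters' processing notes used Affymetrix Expression Console. The version, background correction and scaling are not stated in the labels. Of 35556 probe sets, 21789 had 1 symbol, 1621 several and 12146 none, and 21698 of the 21789 matched a RefSeq gene. For the 999 genes with several such probe sets the one with the highest mean was kept, which left 19938 genes and no filter on low values. Odor was compared with vehicle over the 6 GFP-negative arrays with limma 3.58.1 in R 4.3.3 (lmFit and eBayes, two-sided, Benjamini-Hochberg adjustment over all genes, threshold 0.05). Effects were compared between fractions by the interaction term over 12 arrays, with the arrays taken as independent. List levels are means of log2 values with no test. Tables and plots used Python 3.11.15, pandas 2.3.3 and matplotlib 3.10.9. Promoter windows came from RefSeq.

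The comparison and the gene lists were chosen with earlier results of these data known. Genes were named by a rule, predicted and small RNA genes aside: the 10 genes and 5 receptors with the smallest p in each direction, the 15 with the widest range, up to 4 list members with the smallest p and 3 with the widest range, and S100a5, Omp, Fos, Egr1, Kirrel2, Kirrel3, Jchain and Cyp2g1. Ctsg, Cxcr2, Mmp8, Mmp9, Csf3r, Kif11, S100a8, Nr4a2, Dusp1, Xist and Eif2s3y were added after their values were seen. Alternatives were the fit over 12 arrays, a replicate block, other scalings, a filter, array weights, another variance prior, a leukocyte covariate, the mean of probe sets and leaving out each array. The same kinds of alternative were applied to the interaction term after the data were seen. The labels do not say how mice were assigned to pools, so p-values measure the spread between these pools, and precision is limited by the number of arrays.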

Additional observations from a re-analysis of the deposited data

Results flagged for a closer look

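The odor effect on Olfr747 differed between the sorted fractions by the interaction test that took the 12 arrays as independent, which brought it here. The effect in GFP-negative cells was −0.61 and that in GFP-positive cells 1.57 on the log2 scale, a difference of −2.17 (limma interaction term over 12 arrays, adjusted p = 0.0186). All 3 odor pools were lower than all 3 vehicle pools in the GFP-negative arrays and higher in the GFP-positive arrays. The GFP-negative odor values lay close to the lower quartiles of their arrays. The adjusted p was 0.0526 by limma with the pool as a block, above the threshold of 0.05. No cause was tested.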

How the results depend on the processing

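The count of genes past the adjusted threshold was 0 in all 16 alternatives to the odor comparison, for all genes and for receptors, and the smallest adjusted p by limma was 0.0532, with leukocyte content as a covariate. Genes with an unadjusted p under 0.05 numbered 1301 with all 12 arrays in 1 fit, 344 with a mean of at least 6, 1384 with array weights, 909 with the leukocyte covariate, and 212 to 1320 when 1 array was left out. Receptors numbered 36, 117, 236 and 66 to 111 under the filter, the weights, the covariate and leaving out 1 array. With a replicate block by title number the counts were 1556 genes and 318 receptors, and with a replicate block by code number 774 genes and 150 receptors. Odor and vehicle arrays of the same code number had deviations correlated at 0.44, −0.21 and 0.28, and the arrays of the same title number, of which there are 2 pairs, at 0.24 and 0.28. No label ties the numbers to shared animals or days, and the numbers were not read as pairs. Signs turned for Omp with the title block (0.022), cyclic loess (0.002149) and the covariate (0.091), for Fos with array weights (0.034), for Kirrel2 with array weights (0.016) and the covariate (0.12), and for Kirrel3 with array weights (−0.042). With 1 array left out the difference ran from −0.074 to 0.047 for Omp, −0.24 to 0.13 for Fos, −0.27 to 0.043 for Egr1, −0.10 to 0.12 for Kirrel2, −0.11 to 0.15 for Kirrel3 and −0.13 to 0.014 for Cyp2g1. The interaction of Olfr747 was −2.17 with 0 genes called with the pool as a replicate block, −2.05 with 0 called under cyclic loess, and −2.33 to −2.003 with 0 to 3 called when 1 array was left out; the cause was not tested.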
